A study of Oryzias latipes with 6 samples.

Results

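In medaka hearts at 5 dpf (days post fertilization), 25 transcripts were raised and 12 lowered when AXER loss was combined with constitutive expression of XBP1(S). With levels scaled by library totals, either change alone left them within 1.5-fold of WT. These 37 transcripts were picked from 11256 with a mean of at least 5 CPM (estimated reads scaled to a common library total) over all 36 libraries, out of 37495 transcripts in the tables. A transcript was taken when its mean CPM in [KO + XBP1(S)] medaka was at least 1.5-fold above or below that in WT medaka, with no overlap between the 6 and 6 libraries. In addition, the mean in KO medaka and the mean in [WT + XBP1(S)] medaka each had to lie within 1.5-fold of WT. Levels in these 4 genotypes therefore chose the transcripts, and they are given below as descriptions without a test. The choice depended on the scaling. After another scaling (TMM, below), 15 of the 25 raised transcripts passed 1.5-fold with at least 1 of the changes alone. Of the 25 raised transcripts 8, and of the 12 lowered ones 8, still met the rule.

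The 6 genotypes were AXER-/-, XBP1(S/+) [KO + XBP1(S)], AXER-/-, ATF6(N/+) [KO + ATF6(N)], AXER-/- (KO), AXER+/+, XBP1(S/+) [WT + XBP1(S)], AXER+/+, ATF6(N/+) [WT + ATF6(N)] and AXER+/+ (WT), with 6 sequenced libraries of each. The AXER-/- medaka carry a frameshift allele made with TALENs. XBP1(S) and ATF6(N) are edited alleles at the native XBP1 and ATF6α loci, present in 1 copy, so that the active factor is made in the whole embryo and not only in the heart. The hearts were taken with their blood, and red blood cells of fish keep a nucleus, so RNA of heart cells and of red blood cells is mixed. Whether the libraries of 1 genotype stem from different hearts or clutches is stated neither in the labels nor in the methods. Every spread and p below is therefore that between libraries and may be technical.

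AXER is the transporter that carries ATP from the cytosol into the endoplasmic reticulum (ER), where chaperones such as BiP use it to fold proteins. When unfolded proteins accumulate in the ER, the unfolded protein response is switched on. One arm splices XBP1 mRNA, which yields the transcription factor XBP1(S), known for inducing genes of ER-associated degradation. Another arm releases the nuclear fragment of ATF6α, ATF6(N), known for inducing ER chaperones. The constitutive alleles supply XBP1(S) or ATF6(N) without that signal, and the comparison with WT asks which transcripts move only when XBP1(S) is supplied to hearts that lack AXER.

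The tables give transcript identifiers without gene names, and 0 of 37495 identifiers were found in the available name table. What these transcripts encode is therefore not analysed here, and neither lists of ER chaperones, degradation components and heart genes nor markers of heart and blood cells could be applied. Transcripts are numbered within each direction by their ratio of [KO + XBP1(S)] over WT, the most changed first. Several of them may belong to 1 gene. Library totals were 1850805 to 4728592 estimated reads (median 2477696) in [KO + XBP1(S)] medaka, with the smallest median of any genotype, against 2524357 to 11139745 in WT medaka (median 4013868), and 2396096 to 19619140 in the other 4 genotypes.

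The rule's comparison of [KO + XBP1(S)] with WT was met by 1.11% of the 11256 transcripts above WT and by 38 (0.338% of 11256) below it. Most of those above were also past 1.5-fold of WT, counted in either direction, without the combination. Of them, 44 were past it in both KO and [WT + XBP1(S)] medaka, 15 in KO medaka alone and 41 in [WT + XBP1(S)] medaka alone, which leaves the 25. Of the 38 transcripts below, 5 were past it in both, 19 in KO medaka alone and 2 in [WT + XBP1(S)] medaka alone, which leaves the 12. The same rule with [KO + ATF6(N)] as the changed genotype, and KO and [WT + ATF6(N)] within 1.5-fold of WT, was met by 9 transcripts above and 13 below. Of these, 2 of the 9 were among the 25 raised transcripts, and none of the 13 was among the 12 lowered. With a single genotype as the changed one, the other single genotypes had to lie within 1.5-fold of WT. No limit was set on [KO + XBP1(S)] or [KO + ATF6(N)] medaka in that case. It was then met by 13 transcripts above and 60 below for KO, 32 and 12 for [WT + XBP1(S)], and 7 and 2 for [WT + ATF6(N)].

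Raised transcript 1 (ENSORLT00000045597.1) had the largest ratio. Its levels in [KO + XBP1(S)] medaka were 6.98 to 14.8 CPM with a median of 10.3 CPM, against 2.43 to 6.60 CPM in WT medaka with a median of 3.39 CPM, and the mean was 2.69-fold higher. All libraries of the combined genotype stood above all WT libraries, but the gap between the lowest of them and the highest WT library was small. KO medaka had 3.26 to 7.82 CPM (median 4.41 CPM) and [WT + XBP1(S)] medaka 2.63 to 10.8 CPM (median 4.49 CPM). Both of these ranges overlapped the WT range and reached into that of the combined genotype.

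Raised transcript 2 (ENSORLT00000038127.1) had 7.82 to 14.998 CPM in [KO + XBP1(S)] medaka (median 10.03 CPM), against 2.77 to 5.64 CPM in WT medaka (median 4.14 CPM), a ratio of 2.43. In KO medaka its libraries were spread from 2.24 to 9.78 CPM, wider than in any other genotype. In [WT + ATF6(N)] medaka all 6 libraries, at 5.80 to 9.06 CPM, also lay above all WT libraries. Both transcripts were close to the minimum level of the rule, and the lowest estimate in a library of the combined genotype was 19 reads for the first and 17 reads for the second.

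Raised transcript 14 was the most abundant of the 25 and the only one whose 6 libraries in [KO + XBP1(S)] medaka lay above every library of the other 5 genotypes. Its levels were 135 to 164 CPM in [KO + XBP1(S)] medaka (mean 147 ± 10.7 CPM, SD, n = 6), against 48.6 to 119.3 CPM in WT medaka (mean 74.7 ± 24.0 CPM, SD, n = 6). KO medaka had 81.7 to 114 CPM and [WT + XBP1(S)] medaka 86.0 to 126 CPM. The levels thus stepped up with each change alone and were highest with both, and 1 WT library at 119.3 CPM lay above all KO libraries and within the [WT + XBP1(S)] range.

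Raised transcript 17 owed its place to 1 library. It had 11.2 to 13.5 CPM in 5 libraries of [KO + XBP1(S)] medaka and 38.1 CPM in replicate 5, against 6.84 to 10.7 CPM in WT medaka. Without that library the ratio to WT was 1.42 in place of 1.92, and the transcript no longer met the rule.

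**Figure D1:**
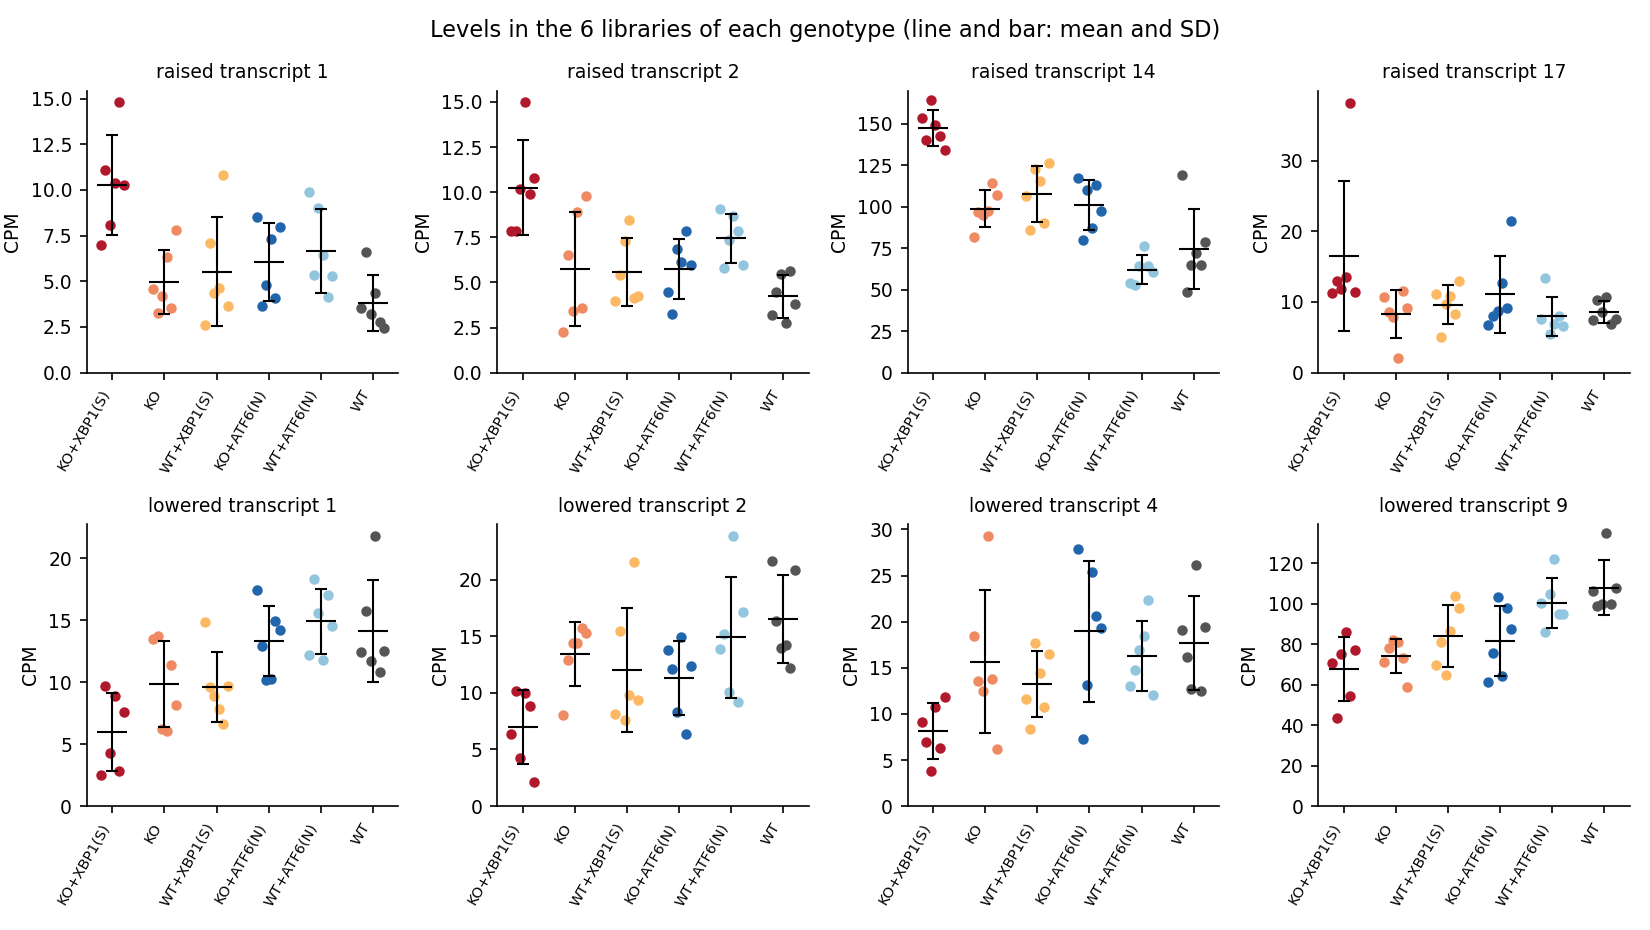
Levels in CPM (vertical axes, from 0) of 4 raised and 4 lowered transcripts in the 6 libraries of each genotype; points are libraries, and line and bar are the mean and SD. [KO + XBP1(S)] libraries lie above all WT libraries in the upper row and below them in the lower row, and replicate 5 of raised transcript 17 stands at 38.1 CPM.

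Over the 25 raised transcripts the ratio of [KO + XBP1(S)] over WT had a median of 2.0 and ranged from 1.54 to 2.69. KO over WT had a median of 1.30 (0.96 to 1.47), and 22 of 25 means lay above WT (32.1% of the 11256 transcripts did). [WT + XBP1(S)] over WT had a median of 1.32 (0.858 to 1.48), and 21 of 25 means lay above WT (27.4% of the 11256). After TMM, explained below, these shares over all transcripts were 52.3% and 50.6%. The means of the single genotypes thus mostly lay on the same side of WT, and their ratios were cut off at 1.5 by the rule itself. The WT libraries helped to choose the 25, which favours low WT levels and so raises every ratio over WT. The KO and [WT + XBP1(S)] means entered the rule as well, so these counts are a description. The mean of the combined genotype, which the rule required to be high, was the highest of the 6 genotypes in 24 of 25 (24.1% of the 11256 transcripts). Raised transcript 23 was highest in [WT + ATF6(N)] medaka, at 8.19 CPM, against 7.93 CPM in [KO + XBP1(S)] medaka.

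Separation from WT was required by the rule, whereas separation from the other genotypes was not. All 6 [KO + XBP1(S)] libraries lay above all 6 KO libraries in 5 of the 25 raised transcripts (0.844% of 11256 transcripts do so) and above all 6 [WT + XBP1(S)] libraries in 7 of the 25 (0.729% of 11256). They lay above all [KO + ATF6(N)] libraries in 6 of 25 (0.808% of 11256) and above all [WT + ATF6(N)] libraries in 10 of 25 (1.00% of 11256). The [KO + XBP1(S)] libraries are the ones that chose the transcripts, so nothing is read from these shares.

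The single genotypes differed between raised transcripts. Raised transcript 10 had 42.0 to 71.3 CPM in [KO + XBP1(S)] medaka, 22.5 to 43.0 CPM in KO medaka and 10.2 to 30.5 CPM in [WT + XBP1(S)] medaka, against 19.2 to 35.1 CPM in WT medaka. Raised transcript 21 had 24.3 to 34.6 CPM in [KO + XBP1(S)] medaka, 9.37 to 26.8 CPM in KO medaka and 12.2 to 23.6 CPM in [WT + XBP1(S)] medaka, against 11.8 to 22.5 CPM in WT medaka. Both single genotypes of raised transcript 21 were near WT, at 0.96-fold and 1.06-fold. Raised transcript 18 had 20.0 to 27.9 CPM in KO medaka and 25.4 to 35.5 CPM in [WT + XBP1(S)] medaka, against 15.5 to 25.1 CPM in WT medaka. Its [WT + XBP1(S)] libraries all lay above the WT range, and most of its KO libraries lay within it.

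Among the lowered transcripts, lowered transcript 1 (ENSORLT00000039646.1) had 2.54 to 9.70 CPM in [KO + XBP1(S)] medaka (median 5.91 CPM), against 10.8 to 21.8 CPM in WT medaka (median 12.5 CPM), a ratio of 0.421. KO medaka had 6.04 to 13.7 CPM and [WT + XBP1(S)] medaka 6.64 to 14.9 CPM. Both single genotypes lay between the combined genotype and WT and overlapped both.

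Lowered transcript 2 (ENSORLT00000030449.1) had 2.16 to 10.2 CPM in [KO + XBP1(S)] medaka (median 7.58 CPM), against 12.2 to 21.6 CPM in WT medaka (median 15.3 CPM), and its ratio was also 0.421. The lowest of these values came from 4 estimated reads. Most KO libraries of this transcript lay within the WT range, and 1 was low at 8.07 CPM.

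Lowered transcript 4 had 3.82 to 11.9 CPM in [KO + XBP1(S)] medaka, against 12.5 to 26.1 CPM in WT medaka. Its KO libraries spread from 6.19 to 29.3 CPM, across both of these ranges. Lowered transcript 9 was the most abundant of the 12, with 43.4 to 85.8 CPM in [KO + XBP1(S)] medaka, against 98.9 to 135 CPM in WT medaka. All 6 KO libraries of lowered transcript 9, at 59.0 to 82.2 CPM, were also below all WT libraries, and the KO mean of 0.687-fold missed the limit narrowly. The same held for lowered transcript 12, at 29.3 to 52.8 CPM in KO medaka, against at least 56.3 CPM in WT medaka. Its ratios to WT were 0.692 in KO and 0.659 in [KO + XBP1(S)] medaka.

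Over the 12 lowered transcripts the ratio of [KO + XBP1(S)] over WT had a median of 0.591 (0.421 to 0.659), that of KO over WT 0.776 and that of [WT + XBP1(S)] over WT 0.750. All 12 means were below WT in both single genotypes, as were those of 56.7% of the 11256 transcripts. After TMM, 10 of 12 were below WT in [WT + XBP1(S)] medaka, and lowered transcripts 8 and 11 were above it, at 1.09-fold and 1.05-fold. The combined genotype was the lowest of the 6 in 12 of 12, by library totals (14.8% of all transcripts) and after TMM (24.5%). None of the 12 separated [KO + XBP1(S)] libraries fully from KO libraries (0.0888% of 11256 transcripts do so) or from [WT + XBP1(S)] libraries (0.0977% of 11256). They lay below all [KO + ATF6(N)] libraries in 2 of 12 (0.133% of 11256) and below all [WT + ATF6(N)] libraries in 3 of 12 (0.684% of 11256). The [KO + XBP1(S)], KO, [WT + XBP1(S)] and WT libraries chose the 12, so nothing is read from these counts and shares. In whole hearts, fewer cells of a type and less RNA per cell cannot be told apart.

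**Figure D2:**
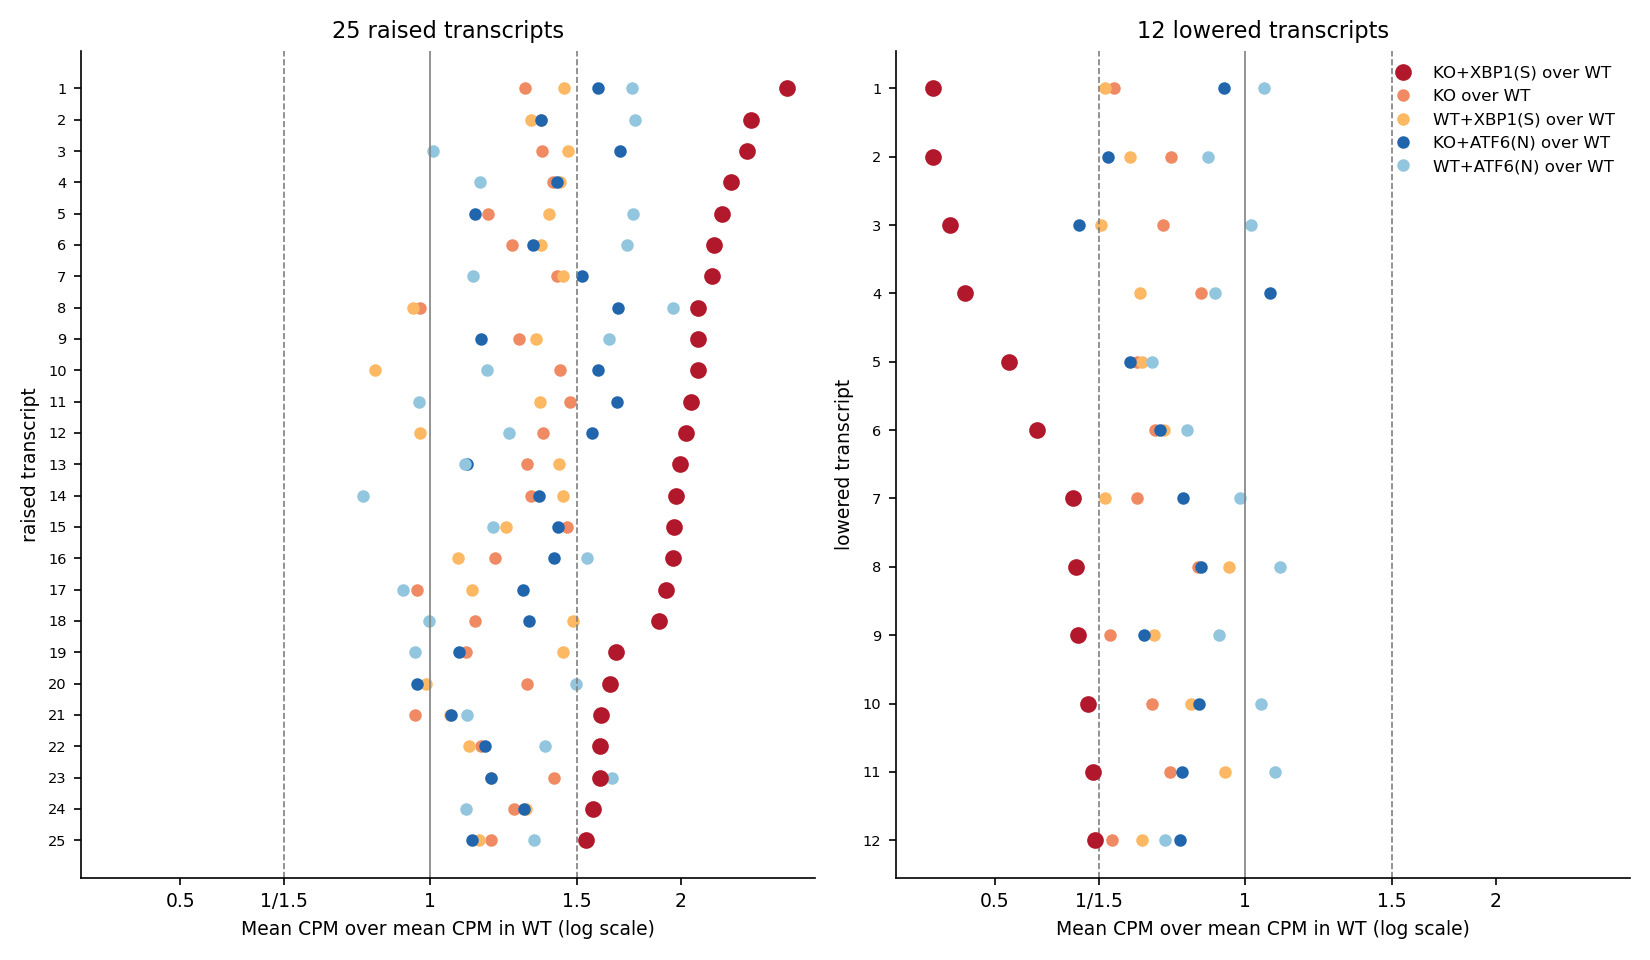
Ratio of the mean CPM in each genotype to the mean CPM in WT (horizontal, log scale) for the 25 raised and 12 lowered transcripts (vertical, by number); dashed lines mark 1.5-fold in either direction. The [KO + XBP1(S)] points lie outside the lines by the rule, KO and [WT + XBP1(S)] points inside them, and 8 raised transcripts have [WT + ATF6(N)] points beyond 1.5-fold.

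Several transcripts sat at the limits. The raised transcripts nearest inside had ratios of [KO + XBP1(S)] over WT of 1.54 and 1.57, and the nearest outside that met the other conditions had 1.47 and 1.42. For the single genotypes, the raised transcripts nearest inside had 1.48 in [WT + XBP1(S)] and 1.47 in KO medaka, and 2 others were left out at 1.501 and 1.505 in [WT + XBP1(S)] medaka. The lowered transcripts nearest inside had ratios of 0.659 and 0.656, and the nearest outside 0.669 and 0.681. For the single genotypes, the lowered transcripts nearest inside had 0.671 and 0.677 in [WT + XBP1(S)] medaka, and 2 others were left out at 0.664 and 0.657 in KO medaka.

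How far the combination went beyond its parts depended on the scaling of the libraries. With library totals, the log2 ratio of [KO + XBP1(S)] over WT exceeded the sum of the log2 ratios of KO and [WT + XBP1(S)] in 23 of 25 raised transcripts, with a median excess of 0.30. It went below the sum in 9 of 12 lowered transcripts, with a median difference of -0.15. The rule asks for a large combined ratio and limits the single ones, so it favours such an excess. The share of all transcripts with an excess was not computed, and these counts are a description. With library totals, however, the median log2 ratio to WT over all 11256 transcripts was -0.17 in [WT + XBP1(S)], -0.13 in KO and -0.11 in [KO + ATF6(N)] medaka, against -0.01 in [KO + XBP1(S)] and 0.08 in [WT + ATF6(N)] medaka. TMM (trimmed mean of M-values), which scales libraries by the bulk of transcripts, brought all 5 medians to between -0.02 and 0.01.

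After TMM the log2 ratio of the combined genotype exceeded the sum in 13 of 25 raised transcripts, with a median excess of 0.01. It went below the sum in 12 of 12 lowered transcripts, with a median difference of -0.54. The choice by the rule favours an excess over the sum here too, so nothing is read from these counts and medians. For the raised transcripts the single genotypes had median ratios to WT of 1.40 in KO and 1.48 in [WT + XBP1(S)] medaka after TMM, while [KO + XBP1(S)] medaka had 1.96. Of the 25, 15 then passed 1.5-fold in at least 1 single genotype, among them raised transcripts 1, 3, 4, 7, 11 and 14, and 8 still met the whole rule (2, 8, 9, 16, 17, 21, 22 and 24). For the lowered transcripts the single genotypes moved towards WT, at 0.860 in KO and 0.880 in [WT + XBP1(S)] medaka, and 8 of 12 still met the rule.

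After TMM the direction did not turn for any of the 37 transcripts. The [KO + XBP1(S)] mean was the highest of the 6 genotypes in 25 of 25 raised transcripts (19.4% of 11213 transcripts). It was the lowest in 12 of 12 lowered ones (24.5% of 11213). The same libraries chose the transcripts by their direction, so nothing is read from these counts. Both scalings together left 8 raised and 8 lowered transcripts within the rule, which sets no limit on the ATF6(N) genotypes. Fewer were left when omission of any 1 library, thinning to 1 total and group medians (all below) were required as well. Only 1 raised (transcript 16) and 1 lowered (transcript 6) then remained. After TMM the rule was met by 12 raised and 27 lowered transcripts in all, so which direction was the more frequent turned with the scaling.

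**Figure D3:**
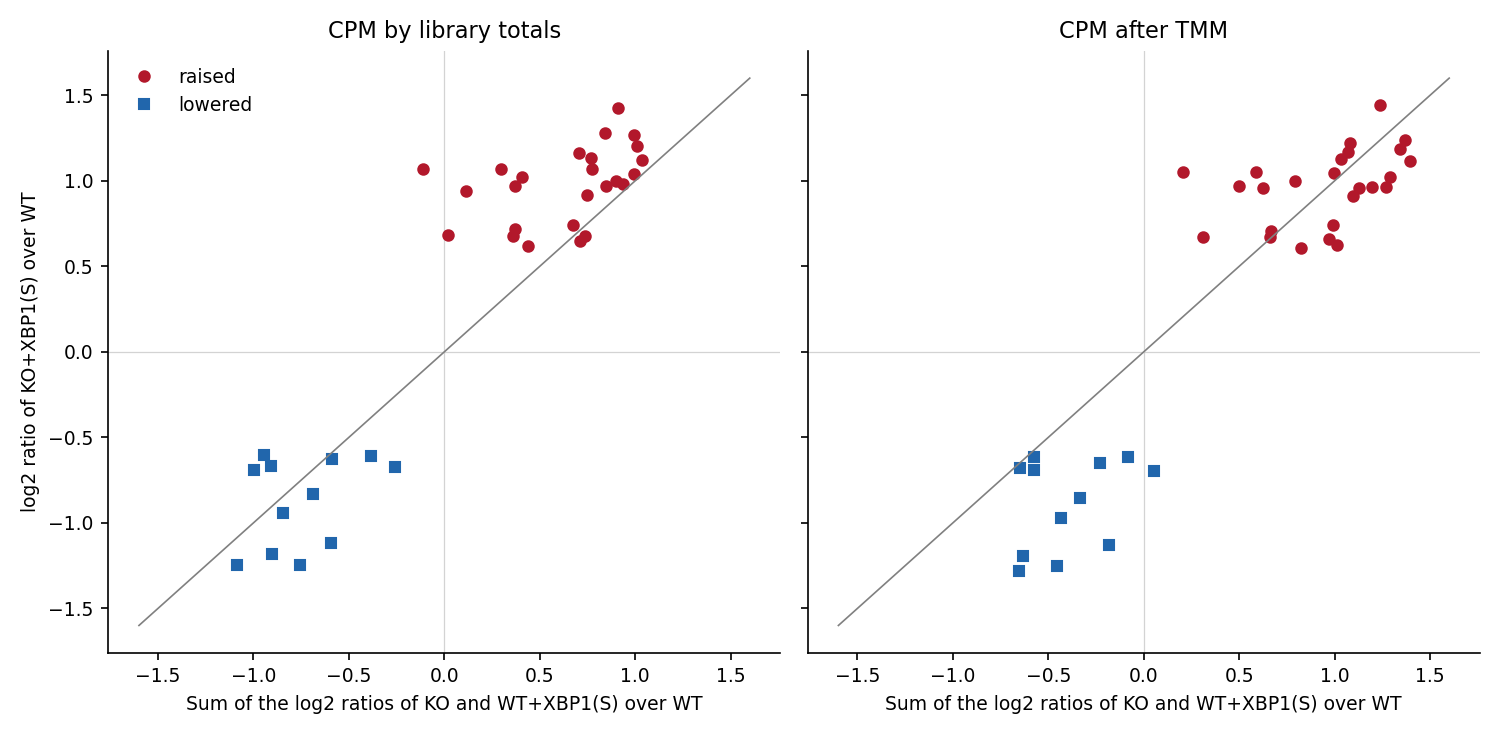
log2 ratio of [KO + XBP1(S)] over WT (vertical) against the sum of the log2 ratios of KO and [WT + XBP1(S)] over WT (horizontal) for each transcript, with library totals (left) and after TMM (right); the line marks equality. Raised transcripts lie above the line in 23 of 25 cases on the left and 13 of 25 on the right, and lowered ones below it in 9 of 12 and 12 of 12. The rule favours these sides of the line.

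Single libraries also decided some cases. Of the 25 raised transcripts, 9 met the rule whichever of the 36 libraries was left out. For 13 of the other 16, the omission took a single genotype past 1.5-fold while [KO + XBP1(S)] stayed past it, and for 3 (raised transcripts 17, 24 and 25) the combined genotype fell under 1.5-fold. Of the 12 lowered transcripts, 2 (4 and 6) met the rule under all 36 omissions, 5 were lost through a single genotype and 5 through the combined one.

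The depth of the libraries moved with the genotype and is given beside these results. Within genotypes, the rank correlation of a raised transcript's level with the library total, over 36 libraries, had a median of -0.22, compared with -0.16 over all 11256 transcripts, and it was below -0.5 in 6 of 25 raised transcripts and in 6.63% of all. For the lowered transcripts the median was -0.01. When every library was thinned to the smallest total, 13 of the 25 raised and 3 of the 12 lowered transcripts still met the rule. The part of depth in these results was not tested further.

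The libraries of [KO + ATF6(N)] and [WT + ATF6(N)] medaka entered the rule only through the mean over all 36 libraries. They allow a comparison of AXER loss in other fish, with ATF6(N) in place of XBP1(S). The spread in the test was estimated over all 36 libraries, however, among them those whose lack of overlap chose the transcripts. Standard errors and p of the chosen transcripts may therefore be too small. A call required a Benjamini-Hochberg adjusted p under 0.05 over all transcripts tested and more than 1.5-fold, from edgeR's quasi-likelihood test. Over 18076 transcripts, 84 were called higher in [KO + ATF6(N)] medaka than in [WT + ATF6(N)] medaka (0.465% of 18076) and 25 lower (0.138% of 18076), 0.603% in all. Of the 11256 transcripts with at least 5 CPM, 0.737% were called higher and 0.213% lower. All 37 transcripts were tested.

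Of the 25 raised transcripts, 4 were called higher (16.0%) and none lower. The test scaled libraries by TMM, whereas the 25 were picked by library totals. After TMM, the 4 called (raised transcripts 3, 7, 11 and 14) passed 1.5-fold of WT in at least 1 single genotype. They thus did not meet the rule on the scale of the test. None of the 8 raised transcripts that still met the rule after TMM was called. The rule on that scale held their KO means within 1.5-fold of WT, and a call needs more than 1.5-fold. The lack of calls among them is therefore not read as a lack of response. Raised transcript 11 had 36.9 to 57.2 CPM in [KO + ATF6(N)] medaka (median 41.1 CPM), against 16.4 to 37.0 CPM in [WT + ATF6(N)] medaka (median 25.3 CPM). The groups overlapped by 1 library of [WT + ATF6(N)] medaka. Its log2 fold change was 0.98 with a standard error of 0.16 and an adjusted p of 0.000213 from edgeR.

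Raised transcript 14 had 80.1 to 117 CPM in [KO + ATF6(N)] medaka (median 104 CPM), against 52.8 to 76.6 CPM in [WT + ATF6(N)] medaka (median 62.4 CPM). These groups did not overlap. Its log2 fold change was 0.89 with a standard error of 0.16 and an adjusted p of 0.000859 from edgeR. Raised transcript 14 thus rose with AXER loss under ATF6(N), and its [WT + ATF6(N)] mean of 62.1 CPM was 0.831 times the WT mean.

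Raised transcript 3 had 38.8 to 68.7 CPM in [KO + ATF6(N)] medaka (median 53.6 CPM), against 22.4 to 44.3 CPM in [WT + ATF6(N)] medaka (median 29.4 CPM), and the groups overlapped by 1 library on each side. Its log2 fold change was 0.93 with a standard error of 0.20 and an adjusted p of 0.00873 from edgeR. Raised transcript 7 had 24.4 to 44.9 CPM in [KO + ATF6(N)] medaka, against 20.7 to 28.2 CPM in [WT + ATF6(N)] medaka, with 1 low library in the first group. Its log2 fold change was 0.62 with a standard error of 0.14 and an adjusted p of 0.0230 from edgeR. Raised transcript 7 was the least secure of the 4, since it kept its call in 8 of 17 alternatives, whereas transcripts 3, 11 and 14 kept theirs in 17 of 17. With the spread estimated from the 12 ATF6(N) libraries alone, transcripts 3, 11 and 14 were called and transcript 7 was not.

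The remaining raised transcripts were divided. Raised transcript 18 passed the adjusted p at 0.0247 (edgeR) with a log2 fold change of 0.58, just under the 1.5-fold limit, and it was called in 5 of 17 alternatives. Raised transcript 10 was called in 1 of 17. At an unadjusted p under 0.05, 9 of the 25 were higher and 1 was lower, compared with 4.92% higher and 4.0% lower of the 11256 transcripts. The median log2 fold change over the 25 was 0.17, and 16 of 25 were positive, compared with a median of -0.01 and 48.2% positive over the 11256. The same AXER alleles separate KO from WT in the rule and in this comparison. By library totals, 22 of the 25 were above WT in KO medaka (32.1% of the 11256 were), in libraries that the rule used.

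None of the 12 lowered transcripts was called in either direction by edgeR, and 0 of 12 passed an unadjusted p of 0.05. Of the 11256 transcripts, 0.737% were called higher and 0.213% lower, and 4.92% and 4.0% passed that unadjusted p. With shares this low, a count of 0 in 12 tells little. DESeq2 and limma-voom also called none of the 12. By library totals and after TMM, their KO means lay within 1.5-fold of WT, and a call needs more than 1.5-fold. On simulated data the test between the ATF6(N) genotypes found 11.9% of 1.5-fold and 49.3% of 2-fold changes. The lack of calls is therefore not read as a lack of response. Of the 12 log2 fold changes, 7 were negative, with a median of -0.03, and the largest fall was that of lowered transcript 3, at -0.47 with a standard error of 0.24 and an adjusted p of 0.801 from edgeR.

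**Figure D4:**
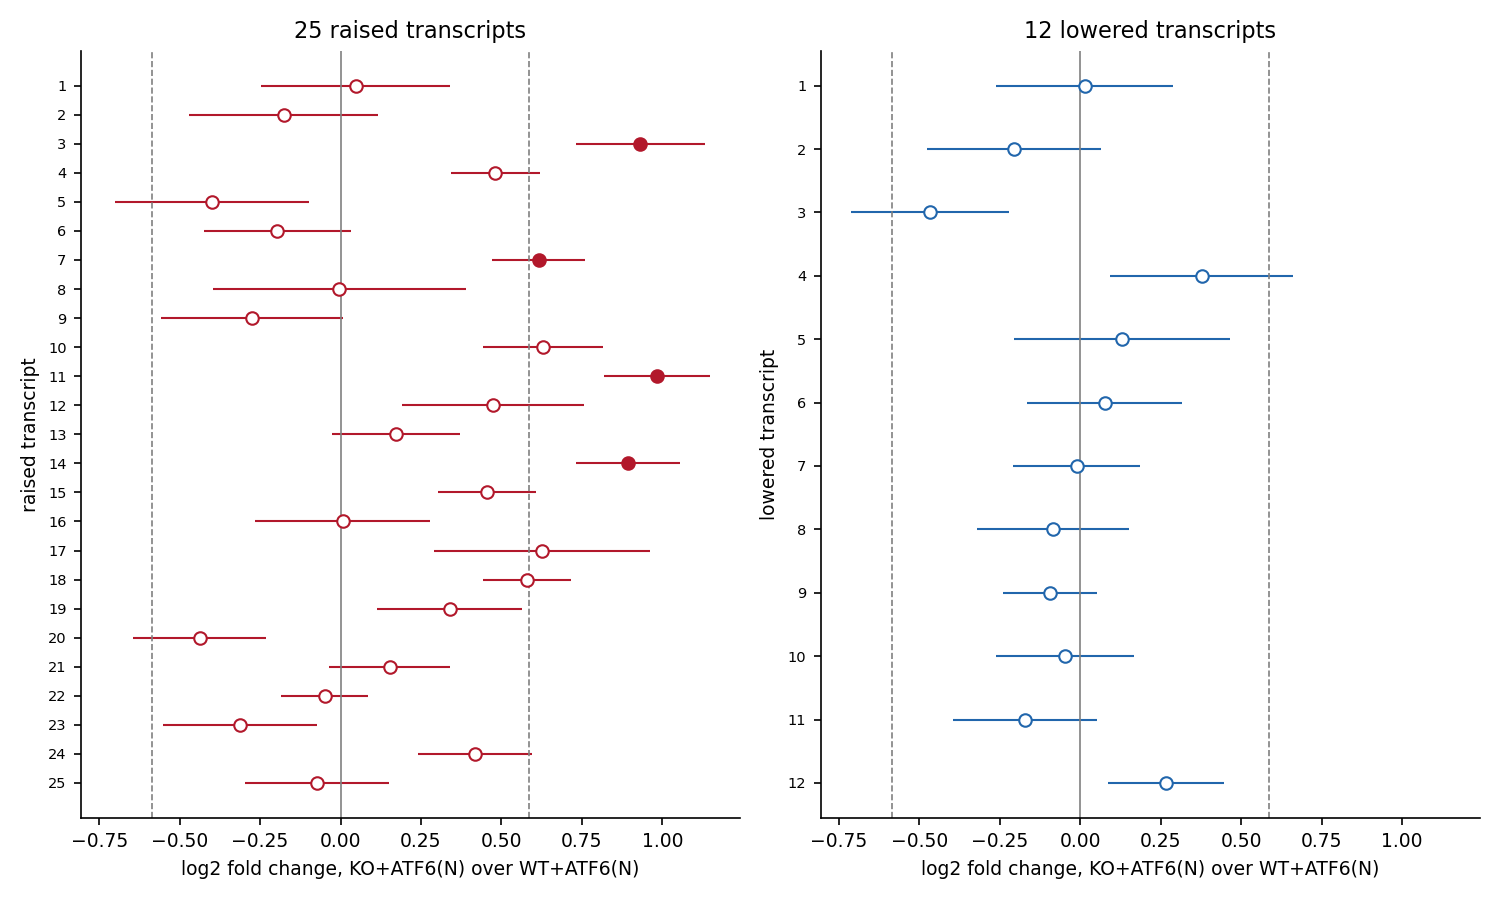
log2 fold change of [KO + ATF6(N)] over [WT + ATF6(N)] medaka (horizontal) with its standard error (bars) from edgeR for each raised and lowered transcript (vertical, by number); filled points are called, and dashed lines mark 1.5-fold. Raised transcripts 3, 7, 11 and 14 are called higher, and the lowered transcripts lie between -0.47 and 0.38.

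By library totals, some of the raised transcripts were also higher with ATF6(N) in WT medaka. The [WT + ATF6(N)] mean was at least 1.5-fold above WT in 8 of the 25 (4.81% of the 11256 transcripts were), by 1.54-fold to 1.96-fold. The WT libraries helped to choose the 25, which favours low WT levels and so raises every ratio over WT. The count is therefore a description. The 8 were raised transcripts 1, 2, 5, 6, 8, 9, 16 and 23, of which 7 had a mean under 10 CPM, compared with 30.4% of all 11256. After TMM their ratios were 1.49 to 1.81, and raised transcript 16 fell under 1.5-fold. Raised transcript 8 had 5.94 to 15.1 CPM in [KO + XBP1(S)] medaka and 4.48 to 12.8 CPM in [WT + ATF6(N)] medaka, against 3.19 to 5.63 CPM in WT medaka. Its means in KO and in [WT + XBP1(S)] medaka, at 4.33 and 4.24 CPM, were near the WT mean of 4.46 CPM.

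None of these 8 was called between [KO + ATF6(N)] and [WT + ATF6(N)] medaka, and their ratios of mean CPM there were 0.646 to 0.914. They were singled out by a high [WT + ATF6(N)] mean, which is also the denominator of these ratios, so the ratios are a description. The 4 called transcripts, 3, 7, 11 and 14, had [WT + ATF6(N)] means of 0.831 to 1.13 times the WT mean. By library totals, the mean of [KO + ATF6(N)] medaka also was at least 1.5-fold above WT in 7 of the 25 (2.59% of the 11256 were). This count too has the WT libraries that helped to choose the 25 as its denominator, so nothing is read from it.

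The ATF6(N) genotypes were also compared with WT for the lowered transcripts, by library totals. [WT + ATF6(N)] over WT had a median of 0.958 over the 12, and none was 1.5-fold below WT (1.10% of the 11256 were). [KO + ATF6(N)] over WT had a median of 0.837 (median log2 ratio over all 11256 transcripts -0.11), and 11 of 12 means lay below WT. One, lowered transcript 3, was past the limit (6.48% of the 11256 were), at 7.06 to 17.2 CPM in [KO + ATF6(N)] medaka, against 13.2 to 26.7 CPM in WT medaka. Lowered transcript 4 went the other way, at 7.25 to 27.9 CPM in [KO + ATF6(N)] medaka. After TMM, lowered transcripts 1 and 4 were above WT in [KO + ATF6(N)] medaka, at 1.04-fold and 1.15-fold. Lowered transcript 3, at 0.682-fold, was then inside the limit. The WT libraries helped to choose the 12, so nothing is read from these counts.

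Raised transcripts 4, 7 and 15 varied together between libraries of 1 genotype. The correlations of their deviations from genotype means, on log2(CPM + 1) over 36 libraries, were 0.74 for 4 and 15, 0.74 for 4 and 7 and 0.72 for 7 and 15. Over all 300 pairs of raised transcripts the median was 0.16, close to the 0.11 of raised transcripts with all other transcripts, and 9 pairs were above 0.6. Over the 66 pairs of lowered transcripts the median was 0.06, compared with 0.05 with all other transcripts, and no pair was above 0.6. The pairs of 4, 7 and 15 were the highest of the 300. All points share the depth of their library. The rank correlations of level with library total within genotypes were -0.46, -0.55 and -0.54 for transcripts 4, 7 and 15. Over the 25 the median was -0.22, and the part of depth in the shared variation was not tested. The estimates of transcripts 4 and 15 were not whole in every library, whereas those of transcript 7 were. Of the 25 raised transcripts 12, and of the 12 lowered ones 4, had whole estimates in every library, compared with 48.8% of the 11256.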

How the data were processed

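Hearts of 6 genotypes were sequenced by Lasy-Seq, in which RNA samples are indexed at reverse transcription and pooled. According to the submitters' processing notes, the authors trimmed reads with fastp 0.21.0, aligned them with BWA 0.7.17-r1188 and deposited estimated counts of Salmon for each transcript and library. The build named there is GRCm38, a mouse assembly, although the identifiers are of medaka, so the reference is unclear. The labels give the strain HdrR and the methods cab, and they state different RNA inputs. Not whole (tolerance 1e-06) were 1.88% of the estimated counts as deposited.

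CPM were computed from library totals in Python 3.11.15 (pandas 2.3.3, numpy 2.4.6), and the rule was applied to them. Estimates were rounded and fitted in R 4.3.3 with edgeR 4.0.16 (filterByExpr, TMM, robust quasi-likelihood, 1 mean per genotype over 36 libraries), without covariates. Standard errors are the log2 fold change divided by the root of F. DESeq2 1.42.0 and limma-voom (limma 3.58.1) were alternatives, with other scalings, filters, thinning and omissions of libraries. The rule and the test were checked on simulated data. Each library column was taken as 1 replicate.

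The transcripts and lists were chosen with earlier results of these data known. By the rule for naming, every transcript called between the ATF6(N) genotypes is described, with the values at the limits and, since no gene name matched, the identifiers of the 2 most raised and 2 most lowered transcripts. Other transcripts are singled out by number after their values were seen. Lists of pathways and cell types could not be applied.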

Additional observations from a re-analysis of the deposited data

Results flagged for a closer look

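In each of the 6 genotypes the libraries of 11 transcripts described above were examined for 1 library far from the other 5, by Dixon's criterion. Of these 66 sets, 5 had such a library. The criterion flags about 1 in 20 by chance. Some of the 11 transcripts, raised transcript 17 among them, were singled out after their values were seen. The count is therefore not compared with that rate. Raised transcript 17 had 38.1 CPM in [KO + XBP1(S)] replicate 5, against at most 13.5 CPM in the other libraries of that genotype, and 13.3 CPM in [WT + ATF6(N)] replicate 2. Lowered transcript 1 had 14.9 CPM in [WT + XBP1(S)] replicate 1. Lowered transcript 2 had 8.07 CPM in KO replicate 1. Lowered transcript 9 had 135 CPM in WT replicate 4. The causes were not tested.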

How the results depend on the processing

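No paired analysis was possible because the labels give the libraries no replicate numbers. The number of transcripts that met the rule moved with the scaling and with single libraries. With TMM-normalized CPM it was 12 raised, 8 of them among the 25, and 27 lowered, 8 of them among the 12. With only whole estimates it was 12 raised and 4 lowered, by construction. Thinning to 1 total gave 22 raised (13 shared) and 8 lowered (3 shared), group medians 23 (17 shared) and 8 (5 shared), a minimum of 10 CPM 17 and 11, and no minimum 25 and 18, all within 1.5 times of 25 and 12. Leaving out 1 library gave 22 to 40 raised, with 20 to 25 of the 25 kept, and 10 to 35 lowered, with 9 to 12 of the 12 kept. The raised number moved by over 1.5 times without [KO + XBP1(S)] replicate 1 (40) or 3 (38). The lowered number did so without WT replicates 1 (20), 2 (20) or 6 (21) and without [KO + XBP1(S)] replicates 1 (35), 2 (19), 3 (25), 4 (24) or 6 (29). A condition of no overlap is easier to meet with 5 libraries than with 6.

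Between the ATF6(N) genotypes, 90 to 109 transcripts were called when 1 library was left out, 92 without the filter on low counts, 159 by DESeq2, 117 by limma-voom and 128 with 12 libraries alone, against 109. Of the 37 transcripts, 3 to 5 were called under every alternative, all of them raised and higher. The median log2 fold change was 0.14 to 0.33 over the raised and -0.12 to 0.07 over the lowered transcripts when 1 library was left out, and that of the lowered ones was highest without [WT + ATF6(N)] replicate 5 (0.067). Raised transcript 7 lost its call with limma-voom (log2 fold change 0.57), where it fell under the fold limit, without the filter (adjusted p = 0.101, edgeR), with 12 libraries alone (adjusted p = 0.0532, edgeR) and in 6 of 12 omissions. Raised transcript 10 gained a call with DESeq2 alone, and raised transcript 18 in 5 omissions. The lowest estimate in a [KO + XBP1(S)] library was 14 reads over the raised and 4 reads over the lowered transcripts, so counting error limits the low ones.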
